A study of Mus musculus with 45 samples.

Results

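The levels of 10 genes whose transcripts are best known from endothelial cells and the vessel wall were followed through RNA of sorted lung macrophages and monocytes. The genes are Cldn5, Ramp2, Egfl7, Tmem100, Cdh5, Gpihbp1, Tspan7, Inmt, Mgp and Edn1, and they are 10 of the 23594 gene rows of the deposited table. They were picked by name from their high levels in some of the libraries described here, so their levels are given as a description without a test. Tests were run on a longer list of 54 other endothelial genes and on 2 short lists of partner and activation genes.

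Interstitial macrophages (IM), inflammatory monocytes (iMo) and alveolar macrophages (AM) of C57BL/6J mouse lung were isolated on a flow cytometer, and RNA of small numbers of cells was sequenced with a Smart-seq2 type method. Lipopolysaccharide (LPS), the cell wall component of gram-negative bacteria that TLR4 senses, was given into the peritoneum (ip), and cells were taken at 2, 6 and 20 h, or without it at 0 h. The groups used are IM at ip 2, 6 and 20 h (2 libraries each) and 0 h (2 libraries), iMo at the same 3 ip times (2 libraries each) and 0 h (2 libraries), and AM at ip 2 h (2 libraries), 6 h (3 libraries), 20 h (2 libraries) and 0 h (4 libraries). All animals carry the same strain name, and no transgene is named. The sample labels give 20 h where the text on the series gives 22 h, and the labels were followed. The labels do not say whether replicates came from separate animals, so p-values measure the spread between these libraries.

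Endothelial cells line blood vessels, and in the lung their capillary network lies against the alveolar wall, next to the interstitium in which IM reside and in direct reach of circulating monocytes. They seal the vessel with junction proteins such as claudin-5 and VE-cadherin, and respond to LPS by displaying adhesion molecules for leukocytes. Macrophages do not use most of these genes; endothelin-1, the product of Edn1, is an exception known from human macrophages. In bulk RNA of sorted cells, fewer cells of a type and less RNA per cell cannot be told apart.

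Values are TPM, the level of a transcript per length on a common scale. Column sums of the 27 libraries lay between 331473 and 551635 TPM, and 4068 to 7298 genes reached 5 TPM. The ribosomal RNA precursor Rn45s held 4.33 to 33.3% of a column. Markers of alveolar macrophages summed to between 4062 and 16050 TPM in AM and to between 363 and 2076 TPM in IM. The AM library A161219 of 20 h stood apart with 3820 TPM of interstitial macrophage markers, against 21.8 TPM in the other AM library of that time. IM libraries carried interstitial macrophage markers at 6149 to 7636 TPM at 0 h and at 425 to 2213 TPM at the ip times, and neutrophil markers (S100a8, S100a9 and 8 others) at 11176 to 56844 TPM at all times. Neutrophil markers therefore exceeded interstitial macrophage markers in every IM library, and the IM libraries are called by their label with this in view. Each title closes with a code of 6 digits whose meaning is not given, most with a letter before it (N where there is none). At 0 h the IM and iMo libraries are A171227 and B171227 and the AM libraries A171227, C171227, D171227 and N160623, called A, B, C, D and N here, whereas ip libraries have the code of N160623 or of A161219. At 0 h only AM library N shares a code with ip libraries, so in IM and iMo the code and the LPS treatment cannot be told apart.

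The promoters of Cldn5 and Egfl7 are shown because these are a junction gene and a secreted vessel protein with the pattern described next. Of the 10 genes, 5 had a promoter in the RefSeq table (build GRCm38.p6; 250 bases before the start to 50 after it). Capitals mark matches on either strand to the letters AGGAAG, a core of ETS factors, or GGGNNNNNCC, a loose NF-kB pattern. AGGAAG occurs in 35.4% and GGGNNNNNCC in 50.8% of all 32851 promoters of 300 bases in the table, so a match is common. The Egfl7 promoter shown is 1 of its 3, at chr2:26580833-26581132 on the plus strand, with 3 AGGAAG matches and 1 GGGNNNNNCC match. The Cldn5 promoter lies at chr16:18776597-18776896 on the plus strand and holds 2 GGGNNNNNCC matches that overlap each other.
Cldn5: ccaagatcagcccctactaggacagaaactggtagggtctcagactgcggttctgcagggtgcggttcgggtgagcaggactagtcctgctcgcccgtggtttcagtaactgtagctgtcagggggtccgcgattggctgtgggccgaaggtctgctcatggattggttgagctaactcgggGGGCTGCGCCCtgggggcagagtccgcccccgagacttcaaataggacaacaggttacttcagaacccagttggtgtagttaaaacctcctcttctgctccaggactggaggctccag
Egfl7: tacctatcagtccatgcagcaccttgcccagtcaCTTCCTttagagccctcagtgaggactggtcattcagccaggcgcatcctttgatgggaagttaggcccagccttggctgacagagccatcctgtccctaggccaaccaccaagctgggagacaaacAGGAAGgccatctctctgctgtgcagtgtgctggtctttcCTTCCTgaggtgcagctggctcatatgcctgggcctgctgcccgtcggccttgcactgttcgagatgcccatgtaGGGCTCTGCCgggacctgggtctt

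Cldn5 (chr16:18776847-18778262, plus strand), the claudin of endothelial tight junctions, had 186 and 199 TPM in the IM libraries of 0 h, against 0.868 and 13.4 TPM in iMo and 24.6, 6.00, 4.80 and 1.77 TPM in AM libraries A, C, D and N of 0 h. Both IM libraries lay far above all 6 others. Means were 192 ± 9.22 TPM in IM (SD, n = 2), 7.15 ± 8.89 TPM in iMo (SD, n = 2) and 9.29 ± 10.4 TPM in AM (SD, n = 4). Cdh5 (chr8:104101613-104144504, plus strand), which encodes VE-cadherin of adherens junctions, had 30.6 and 47.8 TPM in IM, 0.926 and 4.56 TPM in iMo, and 4.76, 5.52, 4.13 and 0.314 TPM in AM. It was the lowest of the 9 genes other than Edn1 in both IM libraries, and again the groups did not overlap. Egfl7 (chr2:26581083-26592682, plus strand), a secreted protein with EGF-like domains, had 76.8 and 112 TPM in IM, 1.34 and 3.21 TPM in iMo, and 10.0, 6.52, 7.40 and 0.453 TPM in AM. Its exons overlap those of Gm20532 on the same strand, so its level is uncertain to that extent. Tmem100 (chr11:90030348-90036508, plus strand), a membrane protein downstream of the BMP receptor ALK1 in endothelium, had 84.7 and 116 TPM in IM, 0.697 and 8.78 TPM in iMo, and 16.0, 5.38, 2.89 and 1.06 TPM in AM.

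The membrane genes showed the same separation at 0 h. Ramp2 (chr11:101246334-101248250, plus strand), which joins the receptor Calcrl to form the adrenomedullin receptor, had 107 and 173 TPM in IM, 1.42 and 12.2 TPM in iMo, and 24.8, 7.48, 6.53 and 0.576 TPM in AM. Gpihbp1 (chr15:75596630-75598213, plus strand), which holds lipoprotein lipase on the capillary wall, had 147 and 212 TPM in IM, 1.50 and 11.3 TPM in iMo, and 19.4, 6.69, 7.60 and 1.68 TPM in AM. Tspan7 (chrX:10485116-10596604, plus strand), a tetraspanin, had 104 and 166 TPM in IM, 1.04 and 11.0 TPM in iMo, and 15.1, 10.7, 4.17 and 0.920 TPM in AM. For all 3 genes, IM library B was the highest of the 27 libraries, iMo library B exceeded iMo library A, and AM library N was the lowest AM library of 0 h.

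Inmt and Mgp are also expressed by stromal cells of the lung, and Mgp had the highest level of the 10 genes in both IM libraries of 0 h. Inmt (chr6:55170627-55174990, minus strand), an indolethylamine methyltransferase, had 203 and 178 TPM in IM, 4.22 and 9.11 TPM in iMo, and 15.1, 10.8, 43.3 and 1.10 TPM in AM. Mgp (chr6:136872435-136875823, minus strand), the matrix Gla protein that inhibits calcification, had 306 and 348 TPM in IM, 7.02 and 9.39 TPM in iMo, and 11.7, 8.16, 73.1 and 3.27 TPM in AM. AM library D was the highest AM library for these 2 genes, but not for the junction genes. Edn1 (chr13:42301476-42307990, plus strand) stood apart from the other 9 with only 4.64 and 4.12 TPM in IM, 0 and 0.621 TPM in iMo, and 0.480, 0.467, 0.265 and 0.0590 TPM in AM. Its exons overlap the antisense gene Gm47118, and whether counting used the strand is not stated, so reads of the 2 cannot be told apart here.

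All 10 genes were higher in both IM libraries than in every AM library and every iMo library of 0 h. Of the 8937 genes tested, 23.5% were likewise higher without overlap against AM and 22.4% against iMo, and the choice of the genes used these values. The difference of mean log2(TPM+1), IM minus AM, ran from 2.04 (Edn1) to 4.72 (Cldn5) with a median of 4.23, beside a median of 0.00 over all tested genes. Against iMo it ran from 2.08 (Edn1) to 5.22 (Cldn5) with a median of 4.73, beside a median of -0.15. Between iMo and AM at 0 h the differences ran from -0.04 to -0.85, or from -0.28 to -1.28 after rescaling without Rn45s and Lars2, beside medians of 0.15 and -0.33 over all tested genes, and the libraries of the groups overlapped for all 10 genes.

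**Figure D1:**
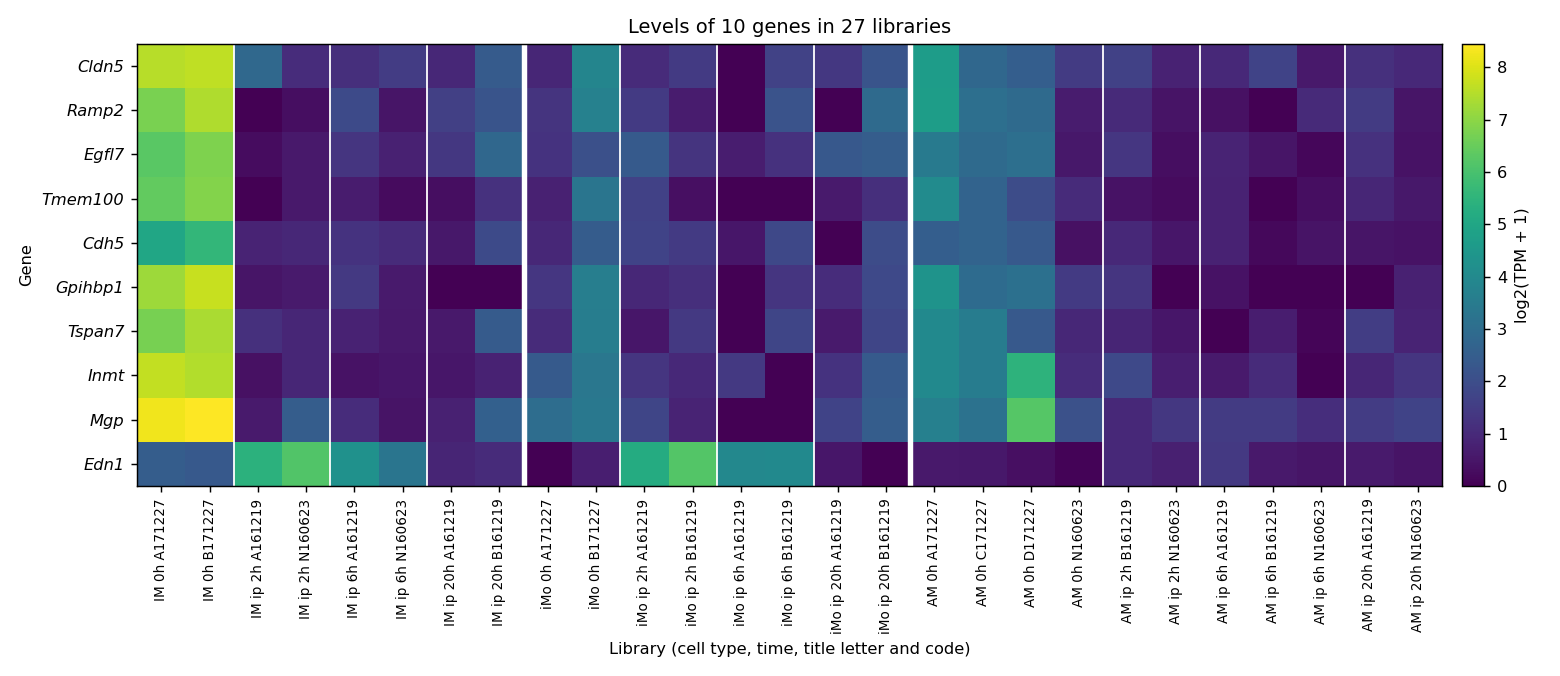
Levels of the 10 genes (rows) in the 27 libraries (columns, with cell type, time, title letter and code) as log2(TPM+1), where a lighter colour is a higher level. The 2 IM libraries of 0 h are light in 9 rows, and Edn1 is light in IM and iMo at ip 2 h.

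The 9 genes other than Edn1 summed to 1245 and 1552 TPM in the IM libraries of 0 h, to 19.0 and 83.0 TPM in iMo libraries A and B, and to 141, 67.2, 154 and 11.1 TPM in AM libraries A, C, D and N. Within AM the sums therefore differed widely, and the lowest was the library that carries a code of the ip libraries. As a share of the IM mean, the sum was 1.36 and 5.94% in iMo, and 10.1, 4.81, 11.0 and 0.797% in AM. The make-up of the sum also varied. Mgp held 24.6 and 22.4% of it in IM and 47.5% in AM library D, against 8.29% in AM library A; Inmt held 16.3 and 11.5% in IM and 28.1% in AM library D, against 10.7% in AM library A. Cldn5 held 14.9 and 12.8% in IM, 3.12% in AM library D and 17.4% in AM library A. AM library D had the highest sum of fibroblast markers among the AM libraries of 0 h, 14.8 TPM against 2.42 to 8.01 TPM in the other 3, and of lung epithelial markers, 258 TPM against 77.5 to 127 TPM. Their part in the Mgp and Inmt levels was not tested.

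**Figure D2:**
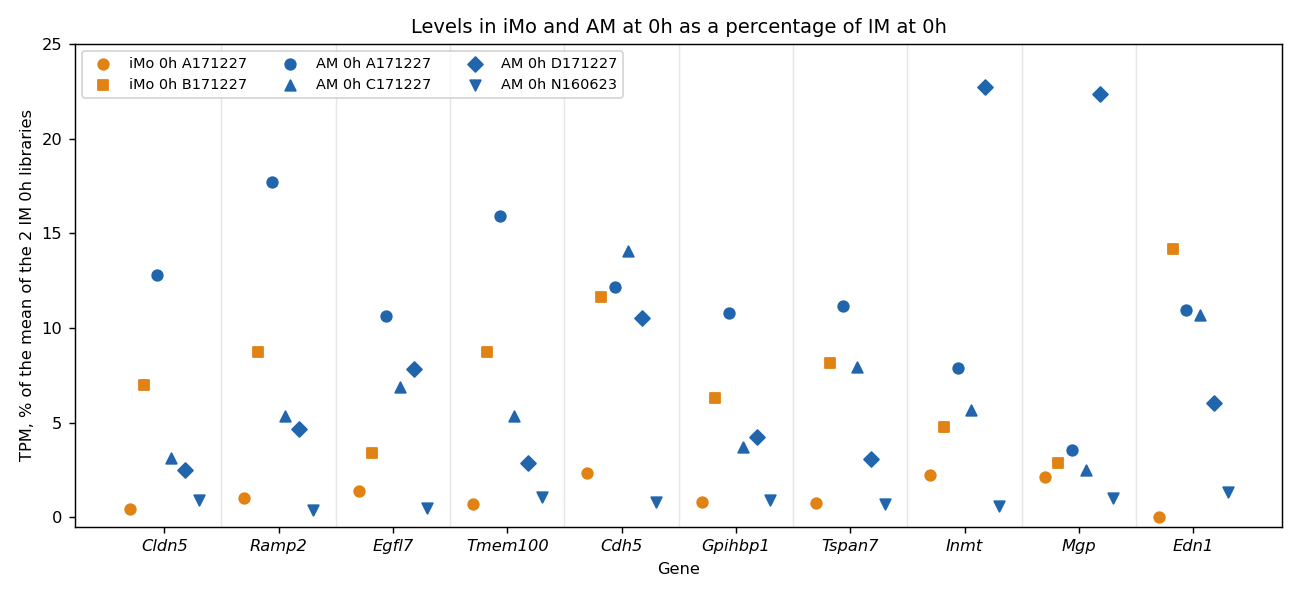
TPM of each gene (horizontal axis) in the 2 iMo and 4 AM libraries of 0 h as a percentage of the mean of the 2 IM libraries of 0 h (vertical axis, 1 point per library). AM library D lies at 22.7% for Inmt and 22.4% for Mgp, and AM library N160623 lies at or under 1.35% for all 10 genes.

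After ip LPS the 9 genes were low in IM, between 0 and 6.18 TPM. Their sum was 9.62 and 10.2 TPM in IM at 2 h, 11.1 and 6.01 TPM at 6 h and 6.90 and 28.1 TPM at 20 h, against 1245 and 1552 TPM at 0 h. Cldn5 had 6.18 and 1.08 TPM at 2 h, 1.19 and 1.81 TPM at 6 h, and 0.933 and 4.34 TPM at 20 h. Gpihbp1 had 0.381 and 0.533 TPM at 2 h, 1.64 and 0.542 TPM at 6 h, and was listed at 0 in both IM libraries of 20 h. Mgp, the highest at 0 h, had 0.510 and 4.65 TPM at 2 h, 1.10 and 0.363 TPM at 6 h, and 0.719 and 5.02 TPM at 20 h. IM library B of 20 h was the higher of its pair for all of them but Gpihbp1. Over the 9 genes and the 19 ip libraries of the 3 cell types, 4 of 171 values reached 5 TPM, 139 lay under 2 TPM, the median was 0.840 TPM and the highest was 6.61 TPM (Ramp2 in iMo at 20 h).

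On the log2(TPM+1) scale, which understates differences of low genes, the median difference of the 10 genes from 0 h in IM was -6.24 at 2 h, -6.24 at 6 h and -5.71 at 20 h, beside medians of -0.79, -0.53 and -0.09 over all tested genes. At 2 h and at 6 h, 9 of the 10 genes were lower in both ip libraries than in both 0 h libraries, and 58.7% of tested genes at 2 h and 55.7% at 6 h were likewise lower without overlap; Edn1 was the exception. At 20 h all 10 were lower, beside 36.3% of tested genes. These comparisons share the 0 h libraries, and the genes were chosen for their levels there.

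In iMo the sum of the 9 genes was 19.0 and 83.0 TPM at 0 h, 16.5 and 10.2 TPM at 2 h, 2.70 and 13.5 TPM at 6 h, and 11.3 and 32.9 TPM at 20 h. Both libraries of 2 h and of 6 h lay below library A of 0 h, and those of 20 h overlapped with 0 h. Egfl7 was an exception in direction at 20 h, with 3.97 and 4.68 TPM against 1.34 and 3.21 TPM at 0 h. In AM the sum was 141, 67.2, 154 and 11.1 TPM at 0 h, 11.8 and 4.64 TPM at 2 h, 6.17, 6.20 and 3.47 TPM at 6 h, and 10.1 and 7.69 TPM at 20 h. Within the AM libraries N160623, 1 at each time and the only code with all 4 times, it was 11.1 TPM at 0 h, 4.64 TPM at 2 h, 3.47 TPM at 6 h and 7.69 TPM at 20 h. That single series of libraries spans a much smaller range than the pooled one. Median differences of the 10 genes from 0 h were -2.06, -2.22 and -1.76 in AM at 2, 6 and 20 h. Those of all tested genes were -0.03, -0.16 and -0.31. In iMo the 10 genes had -1.25, -1.49 and -1.02, beside -0.42, -0.48 and -0.31. Of the 10 genes in iMo, 3, 5 and 2 were lower without overlap, beside 50%, 52.6% and 48.5% of tested genes. There 1 was higher at each time, beside 21.2%, 16.2% and 23.3%. In AM 4, 5 and 4 were lower, beside 2.37%, 5.31% and 5.93%. In AM 1, 0 and 0 were higher, beside 5.43%, 4.96% and 3.3%.

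Edn1 followed a course of its own. It had 42.0 and 71.0 TPM in IM at 2 h, 18.4 and 8.85 TPM at 6 h and 0.824 and 1.08 TPM at 20 h, against 4.64 and 4.12 TPM at 0 h. In iMo it had 35.6 and 71.8 TPM at 2 h, 14.3 and 15.1 TPM at 6 h and 0.427 and 0 TPM at 20 h, against 0 and 0.621 TPM at 0 h. IM and iMo thus overlapped at 2 h, with means of 56.5 ± 20.5 TPM in IM (SD, n = 2) and 53.7 ± 25.6 TPM in iMo (SD, n = 2). AM libraries stayed low throughout, with 0.974 and 0.658 TPM at 2 h, 1.64, 0.501 and 0.404 TPM at 6 h and 0.517 and 0.377 TPM at 20 h, against 0.0590 to 0.480 TPM at 0 h. Differences of mean log2(TPM+1) from 0 h were 3.37, 1.36 and -1.46 in IM, 5.34, 3.62 and -0.09 in iMo, and 0.47, 0.44 and 0.15 in AM at 2, 6 and 20 h. The other 9 genes were low in the same IM and iMo libraries in which Edn1 was high. Cdh5, for example, had 0.785 and 0.935 TPM in IM at 2 h, below Edn1, against 30.6 and 47.8 TPM at 0 h, above it.

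The Edn1 promoter (chr13:42301226-42301525, plus strand, RefSeq, GRCm38.p6) is shown because only Edn1 of the 10 genes was high after LPS. Capitals mark its 1 match to the letters AGATAA, which GATA factors bind and which occur in 11.2% of all promoters of the table, here on the minus strand. The letters TGANTCA of AP-1 sites (in 7.81% of promoters), TATAAA of the TATA box (13.6%) and CGGAAG of ETS sites (16.9%) were not in this window. Only exact matches to the letters were sought, so a site that differs by a letter would be missed. Neither of the patterns given for Cldn5 and Egfl7 matched there either.
Edn1: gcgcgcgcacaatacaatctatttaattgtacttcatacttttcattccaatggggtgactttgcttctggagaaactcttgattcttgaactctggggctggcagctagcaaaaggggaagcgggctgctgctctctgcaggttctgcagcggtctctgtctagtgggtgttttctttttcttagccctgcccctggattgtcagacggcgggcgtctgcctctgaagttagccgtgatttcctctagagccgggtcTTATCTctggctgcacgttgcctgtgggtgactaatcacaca

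**Figure D3:**
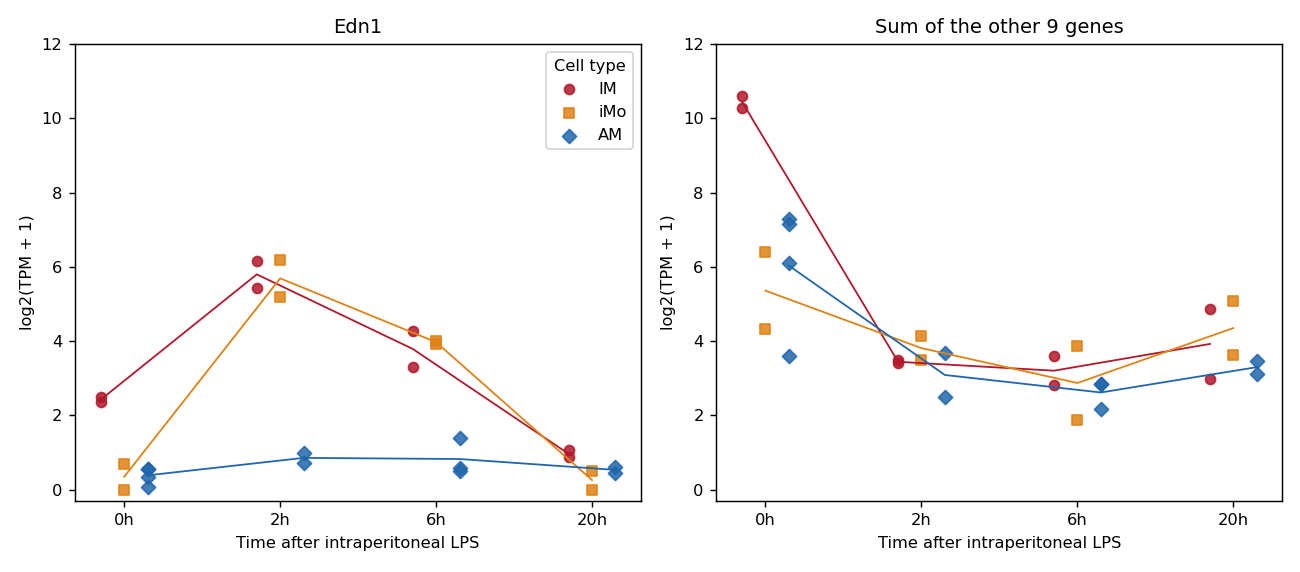
Edn1 (left) and the sum of the other 9 genes (right) as log2(TPM+1) at 0, 2, 6 and 20 h of ip LPS, with 1 point per library, lines through the means of each cell type, and times spaced evenly. Edn1 is highest at 2 h in IM and iMo and at most 1.64 TPM in AM, and the sum of the other 9 is highest in IM at 0 h.

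The receptors, enzymes and ligands that act with these proteins form a list of 17 partner genes, of which 8 reached the expression filter (at least 5 TPM in at least 2 libraries) and were tested with limma's moderated test on log2(TPM+1), with Benjamini-Hochberg adjustment over 8937 genes. Calling a gene means an adjusted p under 0.05. In IM against AM at 0 h, 5 of the 8 were higher and 2 lower, where 15% of all tested genes were called higher and 11% lower. In IM against iMo, 6 were higher and 0 lower, beside 6.32% and 0.739% of tested genes. In IM after ip LPS, 7 of 8 fell at 2 h, 6 at 6 h and 7 at 20 h, where 40.8%, 20.8% and 8.39% of tested genes were called lower; 0 rose, beside 7.99%, 4.63% and 4.05% called higher. Ednrb passed the filter only through the IM libraries of 0 h, where it is high. With the filter applied without those libraries, 4 of the other 7 were higher in IM against AM and 4 in IM against iMo, where Ece1 was no longer called, and 6, 5 and 6 fell in IM at 2, 6 and 20 h. The shares of the 8662 genes then tested were 12.5% and 3.73% called higher, and 38.9%, 17.8% and 5.62% called lower.

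Ednrb, the endothelin B receptor, had 17.6 and 10.4 TPM in IM at 0 h, 0.293 and 0.739 TPM in iMo and 0.179 to 1.22 TPM in AM. In IM at 2 h, when Edn1 was high, it had 1.34 and 0.940 TPM. It was tested only because of its level in IM at 0 h, so its calls in IM are not read further. Ece1, which cleaves the endothelin precursor, had 1.17 and 1.55 TPM in IM at 2 h, against 19.4 and 18.1 TPM at 0 h. Its log2 fold change was -3.07 (SE 0.43, limma adjusted p = 6.8e-06), or -2.27 relative to the median of all tested genes. Calcrl, the partner of Ramp2, had 27.9 and 49.0 TPM in IM at 0 h and 2.47 and 5.15 TPM in iMo, and was called lower in IM at all 3 ip times. Acvrl1, which encodes ALK1 upstream of Tmem100, had 4.73 and 2.41 TPM in IM at 2 h, against 35.9 and 41.4 TPM at 0 h. Ramp1 and Lpl ran the other way between cell types. Lpl, the lipase that Gpihbp1 holds, had 36.0 and 62.6 TPM in IM at 0 h, against 215 to 817 TPM in AM, and Ramp1 had 27.8 and 40.6 TPM in IM, against 72.4 to 170 TPM in AM. Ednrb, Calcrl and Acvrl1 also stand on the list of other endothelial genes.

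In iMo the partner list had 0 genes called higher and 2 lower at 2 h, 0 and 2 at 6 h, and 1 and 1 at 20 h, beside 8.41% and 24%, 5.95% and 23.1%, and 7.39% and 14.8% of tested genes called higher and lower. In iMo against AM at 0 h 1 was higher and 2 lower, beside 16.2% and 13.4%. In AM none was called at any ip time, with 1, 5 and 4 genes at an unadjusted p under 0.05 at 2, 6 and 20 h. AM had few calls at all: 0.134% of tested genes higher and 0% lower at 2 h, 0.929% and 0.369% at 6 h, and 0.0448% and 0.0671% at 20 h.

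Of 5 adhesion and activation genes that endothelium induces in inflammation, 4 were tested (Icam1, Selp, Vcam1 and Lrg1). Selp and Vcam1 stand on the list of 54 as well. At 0 h 3 of the 4 were higher in IM against AM (15% of tested genes), 2 in IM against iMo (6.32%) and 1 in iMo against AM (16.2%), and 0 were lower. In IM, 2 rose at 2 h and at 6 h and 1 at 20 h (7.99%, 4.63% and 4.05% of tested genes), and 1, Vcam1, was called lower at each time (40.8%, 20.8% and 8.39%). In iMo 2, 1 and 2 rose (8.41%, 5.95% and 7.39%) and 0 fell. In AM 0 were called at 2 h and 20 h (0.134% and 0.0448% called higher), with 1 and 2 at an unadjusted p under 0.05, and 1 rose at 6 h (0.929%). Vcam1 passed the filter only through the IM libraries of 0 h, where it is high, so its calls against them are not read further. With the filter applied without those libraries, 2 of the other 3 were higher in IM against AM, 1 in IM against iMo and 0 in iMo against AM (1 at an unadjusted p under 0.05), where Selp was no longer called; in IM 2, 2 and 1 rose and 0 fell at 2, 6 and 20 h. Under this filter 2, 1 and 1 rose in iMo, beside 8.67%, 6.11% and 7.61% of the 8662 genes, and 0 fell, beside 24.8%, 23.8% and 15.1%. At 2 h in IM, Icam1 and Selp rose. Icam1, which leukocytes and many other cells also induce, had 185 and 153 TPM in IM at 2 h, against 18.1 and 45.4 TPM at 0 h. Selp, the P-selectin of endothelium and platelets, had 8.47 and 7.53 TPM in IM at 2 h, against 1.56 and 1.03 TPM at 0 h, and 5.82 and 8.35 TPM in iMo at 2 h, against 0.896 and 1.03 TPM at 0 h. Vcam1 had 0.828 and 1.35 TPM in IM at 2 h, against 9.88 and 6.75 TPM at 0 h. Lrg1, a secreted glycoprotein that neutrophils also contain, rose in IM at 6 h to 497 and 217 TPM, against 135 and 57.8 TPM at 0 h, and in AM at 6 h to 29.5, 33.3 and 41.0 TPM, against 3.41 to 5.87 TPM at 0 h. Selp rose beside Edn1 at 2 h in IM and iMo, while the 9 other genes lay between 0 and 6.18 TPM (Cldn5 in IM) in the same libraries.

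The list of 54 other endothelial genes had 39 tested members, and 24 of these passed the filter only through the IM libraries of 0 h, where they are high. At 0 h 34 of the 39 were higher and 0 lower in IM against AM, and 34 higher and 1 lower in IM against iMo. Of all tested genes, 15% were called higher and 11% lower against AM, and 6.32% and 0.739% against iMo. The list's median log2 fold changes were 2.68 and 2.96, beside 0.00 and -0.15 for all tested genes. With the filter applied without the IM libraries of 0 h, which left 15 list genes of 8662, 10 were higher in each comparison, where 12.5% of genes were called higher against AM and 3.73% against iMo. Plvap, of the diaphragms of fenestrated endothelium and caveolae, led both comparisons with 53.4 and 85.5 TPM in IM, against 0.611 and 3.52 TPM in iMo and 0.621 to 9.42 TPM in AM. It is 1 of the 24 genes that were tested only through the IM libraries of 0 h, and its values are given without a test.

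Against AM, Pecam1 (relative log2 fold change 3.62), Eng (3.51) and Icam2 (3.51) followed; they encode CD31, endoglin and ICAM-2. Against iMo, Epas1 (4.43), which encodes HIF-2 alpha, Aqp1 (4.32), a water channel, and Cav1 (3.90), the caveolar coat protein, followed. Cd300lg was the 1 gene lower in IM than in iMo, with 6.43 and 6.03 TPM against 22.7 and 22.2 TPM. It was no longer called with the filter applied without the IM libraries of 0 h. In iMo against AM at 0 h, 3 list genes were higher (Cd300lg, Icam2, Selp) and 3 lower (Cav1, Vwf, Flt1), beside 16.2% and 13.4% of tested genes. The list median was -0.29, beside 0.15 for all tested genes, and after rescaling the split was 2 higher and 6 lower. With the filter applied without the IM libraries of 0 h, 2 of 15 were higher and 3 lower, beside 16.5% and 13.7% of genes. Selp was then no longer called. Several of the 54 genes were therefore well expressed outside IM. Cav1 had 11.1 to 40.8 TPM in AM at 0 h and Flt1, a VEGF receptor, had 17.7 to 22.4 TPM in AM, against 2.85 and 8.83 TPM in iMo.

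After ip LPS most of the list fell in IM. At 2 h, 37 of 39 were called lower and 1 higher (Selp). At 6 h 36 were lower and 0 higher, and at 20 h 36 were lower and 0 higher. Of all tested genes 40.8%, 20.8% and 8.39% were called lower and 7.99%, 4.63% and 4.05% higher. Of the 39, 24 were tested only through the IM libraries of 0 h, so their calls here are not read further. The list's medians were -3.05, -2.98 and -3.03, beside -0.79, -0.53 and -0.09 for all tested genes. Among the 15 genes that pass the filter without the IM libraries of 0 h, 13, 12 and 12 fell, beside 38.9%, 17.8% and 5.62% of genes. Cavin2, of caveolae, had 0 and 0.787 TPM in IM at 2 h, against 36.6 and 75.1 TPM at 0 h. Its log2 fold change was -5.32 (SE 0.63, limma adjusted p = 1.1e-06), or -4.53 relative to the median gene. Epas1 had 1.38 and 1.89 TPM in IM at 6 h, against 79.7 and 172 TPM at 0 h. Its log2 fold change was -5.49 (SE 0.62, limma adjusted p = 1.3e-06), or -4.96 relative to the median gene. Plvap had 0.438 and 0.764 TPM in IM at 20 h, as 1 of those 24 genes without a test. Aqp1 had 0.319 and 1.39 TPM in IM at 20 h, against 41.7 and 52.4 TPM at 0 h. Its log2 fold change was -4.75 (SE 0.63, limma adjusted p = 1.0e-05), or -4.66 relative to the median gene. With the title code as a covariate, 20 list genes were called at 6 h and 16 at 20 h, over the whole list of 39. This model can separate the code of 0 h from the ip codes only in AM, where 1 library of 0 h (N) has an ip code.

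In AM, 0 list genes were called at 2 h or 20 h by limma, with 12 and 17 at an unadjusted p under 0.05. At 6 h, 3 fell (Cavin2, Sox18 and Icam2) and 0 rose. Of all tested genes, 0.134% were called higher and 0% lower at 2 h, 0.929% and 0.369% at 6 h, and 0.0448% and 0.0671% at 20 h. Sox18 was tested only through the IM libraries of 0 h. Of the 15 genes that pass the filter without those libraries, 2 fell at 6 h, beside 0.358% of 8662 genes. Cavin2 had 0 to 0.528 TPM in AM at 6 h, against 8.71, 5.88, 5.75 and 0.859 TPM at 0 h. It gave the largest value without a call. Its log2 fold change was -1.87 at 2 h (limma adjusted p = 0.38) and -1.81 at 20 h (limma adjusted p = 0.31). Relative to the median gene these were -1.83 and -1.50. The count of the whole list at 6 h was 9 without AM library N of 0 h and 0 without any 1 of the other AM libraries of 0 h or 6 h. It was also 0 with the title code as a covariate or no filter.

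In iMo, 2 list genes rose and 5 fell at 2 h, 0 rose and 6 fell at 6 h, and 2 rose and 3 fell at 20 h. Of all tested genes 8.41% rose and 24% fell at 2 h, 5.95% and 23.1% at 6 h, and 7.39% and 14.8% at 20 h. The list's shares of its 39 genes were below these in each direction and time. However, 24 of the 39 were tested only through the IM libraries of 0 h. Of the other 15, 2 rose and 5 fell at 2 h, 0 and 6 at 6 h, and 1 and 3 at 20 h. The shares of the 8662 genes then tested were 8.67% and 24.8%, 6.11% and 23.8%, and 7.61% and 15.1%. After rescaling the splits of the whole list were 3 and 2, 2 and 4, and 4 and 2. With quantile normalization its split at 6 h was 1 and 5. The list's medians were 0.06, -0.07 and -0.47, beside -0.42, -0.48 and -0.31 for all tested genes. Risers at 2 h were Selp and Eng. Pecam1 rose at 20 h, as did Vcam1, which was tested only through the IM libraries of 0 h. Cd300lg fell to 1.34 and 0.788 TPM in iMo at 20 h, against 22.7 and 22.2 TPM at 0 h. Its log2 fold change was -3.52 (SE 0.50, limma adjusted p = 3.1e-05), or -3.21 relative to the median gene. Icam2 fell to 5.78 and 3.42 TPM in iMo at 2 h, against 28.8 and 46.4 TPM at 0 h. With the title code as a covariate, 1 list gene was called at each time, where that fit again rests on AM library N of 0 h. Leaving out library B of the ip time left 3 at 2 h, 3 at 6 h and 2 at 20 h, and leaving out library B of 0 h left 3 at 20 h.

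Pecam1, Icam2 and Eng, which leukocytes can also express, were set beside the junction gene Cdh5. Pecam1 had 7.95 and 4.11 TPM in IM at 2 h, 15.2 and 12.4 TPM at 6 h and 17.3 and 21.7 TPM at 20 h, against 28.2 and 35.2 TPM at 0 h. Its ratio to Cdh5 was 0.920 and 0.737 in IM at 0 h, and 39.2 and 8.01 in IM at 20 h. In iMo, Pecam1 had 12.2 and 14.8 TPM at 20 h, against 2.05 and 6.17 TPM at 0 h, while Cdh5 had 0 and 2.88 TPM at 20 h. Icam2 had 15.5 and 24.0 TPM in IM at 20 h and 13.9 and 16.8 TPM in iMo, when Cdh5 was at most 2.88 TPM in both. Eng had 19.1 and 16.7 TPM in IM at 2 h, against 42.1 and 60.7 TPM at 0 h, and 15.1 and 22.7 TPM in iMo at 2 h, against 3.28 and 6.95 TPM at 0 h. At other times the levels were lower. Icam2 had 3.419 and 3.423 TPM in IM at 2 h and 3.678 and 1.913 TPM at 6 h. Its ratio to Cdh5 in IM was 2.722 and 1.803 at 6 h, near the 1.809 and 1.854 of 0 h. Eng had 5.94 and 3.775 TPM in IM at 6 h. Levels well above those of Cdh5 in both IM and iMo are thus given for Pecam1 and Icam2 at 20 h and for Eng at 2 h, and not for all 3 genes at every ip time.

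**Figure D4:**
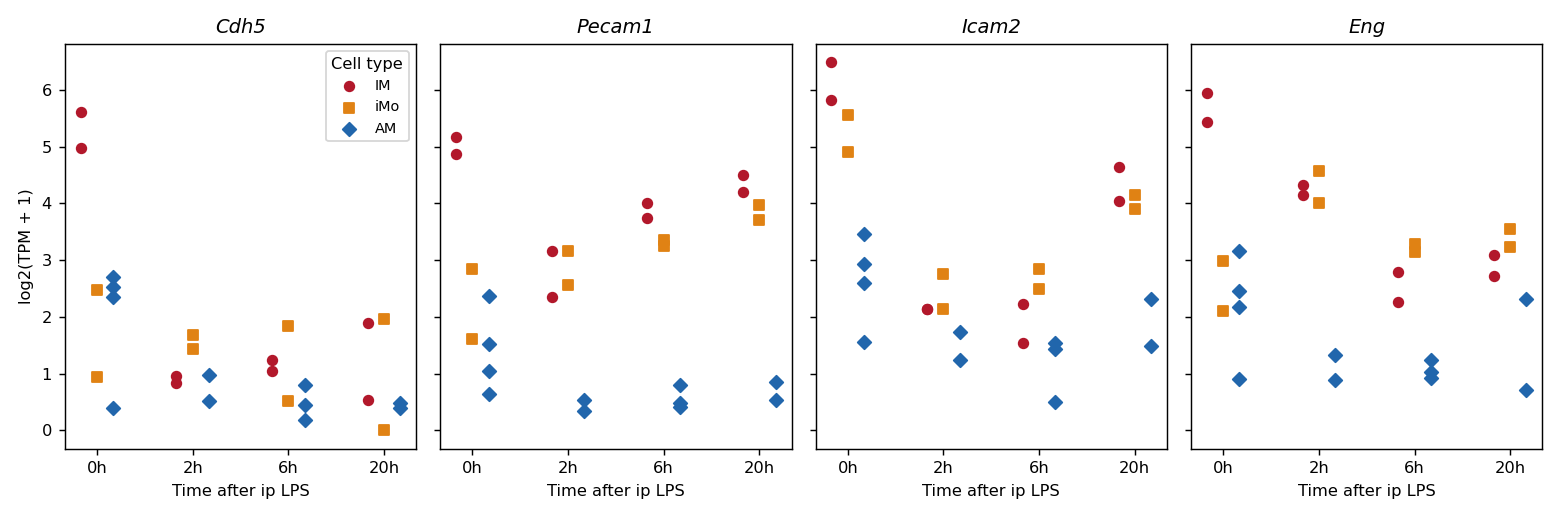
Cdh5, Pecam1, Icam2 and Eng as log2(TPM+1) at 0, 2, 6 and 20 h of ip LPS, with 1 point per library and times spaced evenly. Cdh5 is low in all ip libraries, while Pecam1 in IM and iMo lies between 4.11 and 21.7 TPM at the ip times.

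Over the 27 libraries, the genes whose log2(TPM+1) was most like the mean of the 10 were Aqp1 (Pearson r 0.972), Ptprb (0.967), Sox18 (0.966), Fmo1 (0.965) and Plvap (0.963), and then Cyp4b1, Adgrf5, Cavin2, Adgrl4 and Acer2. Of these 10 genes, 7 stand on the list of other endothelial genes, and 13 of the first 50 do. That list holds 39 of the 8937 tested genes. Of the 7, Ptprb, Sox18, Plvap, Adgrf5 and Adgrl4 passed the filter only through the IM libraries of 0 h. The genes behind the mean were chosen for their levels in the same libraries. The overlap with the list therefore follows in part from selection and is not read further. Over the 25 libraries other than IM at 0 h, r of the 10 genes most like the mean ran from 0.833 (Acer2) to 0.905 (Aqp1). The likeness is a description. Edn1 had other neighbours, Gm21948 (0.962), Il4i1 (0.957) and Tmem2 (0.951), none of them on that list.

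Markers of other lung cells moved with the 9 genes in IM. Lung epithelial markers (17 genes, among them Sftpc and Scgb1a1) summed to 21.7 to 62.3 TPM in IM at the ip times, against 756 and 361 TPM at 0 h. Fibroblast markers (10 genes) summed to at most 6.35 TPM at the ip times, against 59.1 and 42.1 TPM at 0 h, pericyte and smooth muscle markers (9 genes) to 4.18 to 14.8 TPM, against 39.8 to 60.1 TPM, and lymphocyte markers (9 genes in the table) to 8.50 to 33.9 TPM, against 126 to 139 TPM. Interstitial macrophage markers were lower at the ip times too, as given above, whereas neutrophil markers were 17230 to 56844 TPM at the ip times, against 11176 to 22480 TPM at 0 h. Platelet markers (6 genes) summed to 1.12 to 6.88 TPM in IM at the ip times, against 9.35 to 10.8 TPM at 0 h. In iMo at 0 h the epithelial sum was 133 to 176 TPM and the fibroblast sum 1.09 to 2.49 TPM. The part of these cells in the levels of the 10 genes was not tested.

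**Figure D5:**
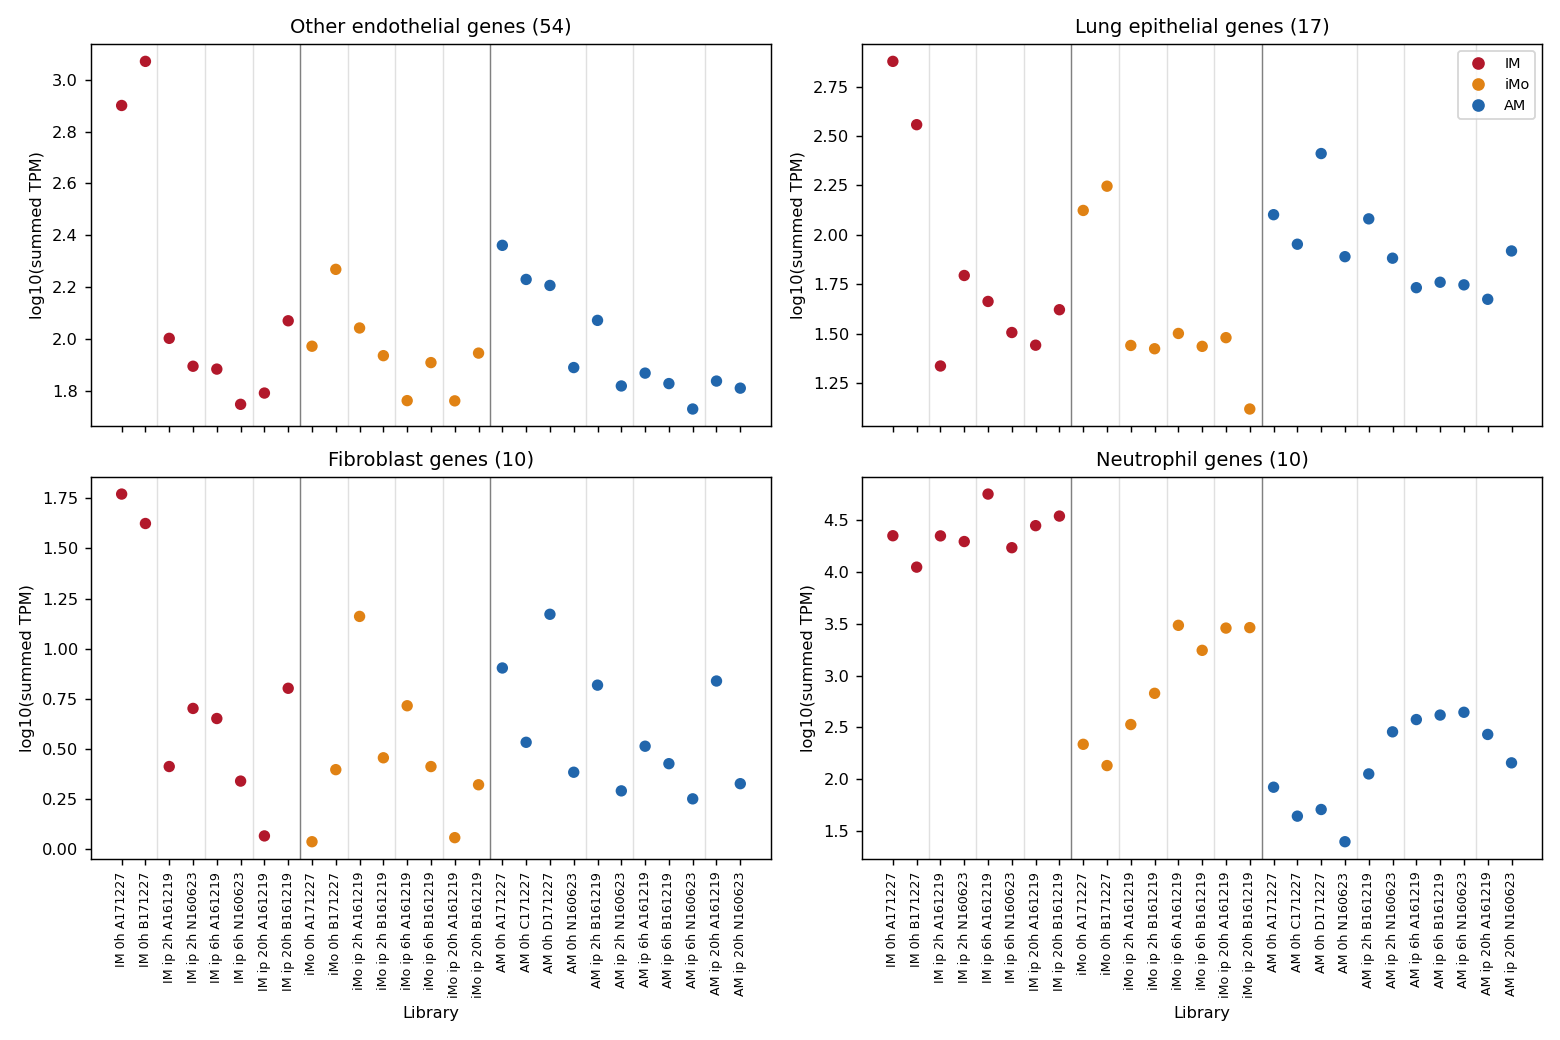
Summed TPM (log10 scale) of the 54 other endothelial genes and of lung epithelial, fibroblast and neutrophil markers in each of the 27 libraries. In IM the first 3 sums are highest at 0 h, and the neutrophil sum is at least 11176 TPM in all 8 IM libraries.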

How the data were processed

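The authors deposited 1 table of TPM values for 23594 gene rows, and STAR, HOMER and mm10 are named in the submitters' processing notes; their versions and the annotation are not stated in the sources used here. TPM keeps no read depth, so precision was judged from replicates. Libraries were grouped by their labels. The 18 libraries of intranasal LPS were not used, because their row names did not match their values: their Pearson r with the other libraries was 0.0097 to 0.025, against 0.757 to 0.989 among those, and Actb lay at 0 to 1.57 TPM, against 2774 to 11141 TPM.

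The 10 genes and all lists were chosen with earlier results of these data known. In R 4.3.3 with limma 3.58.1, 1 model with a coefficient for each of 12 groups was fitted over 27 libraries to log2(TPM+1) of the 8937 genes that reached 5 TPM in 2 or more libraries, with a mean-variance trend. Genes with a Benjamini-Hochberg adjusted p under 0.05 over all tested genes were called. SE and p belong to the fold change as fitted, before the median of all tested genes was subtracted. All 10 genes passed the filter, 9 of them also without the IM libraries of 0 h. Named genes of the other endothelial list are the up to 4 called genes with the largest fold change in each direction of a comparison, or the largest 1 where none was called; from the partner and activation lists any tested gene may be named. Pecam1, Icam2, Eng and Cdh5 were set side by side after their values were seen. The fit was checked on simulated data. Tables were handled in Python 3.11.15 with pandas 2.3.3, and figures drawn with matplotlib 3.10.9. Alternatives were a pseudocount of 0.1 TPM, no filter, rescaling without Rn45s and Lars2, quantile normalization, title code as a covariate, a replicate block and leaving out each library; a filter without the IM libraries of 0 h was chosen after seeing the data.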

Additional observations from a re-analysis of the deposited data

Results flagged for a closer look

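Of 25 values checked, 2 had a library far from the other AM libraries of 0 h, and chance alone gives about 1 in 20 groups such a library. Both were AM library D: Mgp had 73.1 TPM there, and Vcam1 1.00 TPM. In 10 combinations of a gene, a time and 2 cell types, all ip libraries lay above those of 0 h in 1 cell type. In the other cell type all lay below. None of these differences was tested, and the share of all genes with such a pattern was not determined. Libraries without overlap are common here: at 2 h, 58.7% of tested genes were lower in IM and 21.2% higher in iMo. Egfl7 at 20 h differed by -5.21 on the log2 scale between the change in IM (-4.45) and in iMo (0.76). Eng differed between IM and iMo by -3.20 at 2 h, -3.84 at 6 h and -3.63 at 20 h. Pecam1 differed by -2.22 at 6 h and -2.30 at 20 h, and Vcam1 by -2.91, -3.05 and -2.62 at 2, 6 and 20 h. Vcam1 was tested only through the IM libraries of 0 h, and Egfl7 was chosen for its level there. The falls of these genes in IM are therefore not read further. Selp at 20 h differed by -1.38 between iMo (-0.72) and AM (0.66), at levels of at most 1.23 TPM.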

How the results depend on the processing

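Counts of called genes on the list of other endothelial genes are given here in all directions together. With 2 libraries in most groups and no read depth in the table, low values cannot be given a counting error. The title code cannot be told apart from ip LPS in IM and iMo. A fit with the code as a covariate separates them only through AM, where 1 library of 0 h (N) has an ip code. Rescaling without Rn45s and Lars2 moved the median log2 difference of all tested genes from 0.15 to -0.33 in iMo against AM at 0 h and from -0.31 to 0.33 in iMo at 20 h. With the filter applied without the IM libraries of 0 h, chosen after seeing the data, the counts were 10 for IM against AM, 10 for IM against iMo, and 14, 12 and 12 in IM at 2, 6 and 20 h, against 34, 35, 38, 36 and 36; fewer genes (15) could then be called. With the title code as a covariate they were 20 in IM at 6 h and 16 at 20 h, 0 in AM at 6 h, and 1, 1 and 1 in iMo at 2, 6 and 20 h; Cavin2 in iMo at 2 h had 0.34 (adjusted p = 0.87, limma) in place of -1.66; the cause was not tested. The count in AM at 6 h was 3, and 0 without a filter, 5 after rescaling and 7 with quantile normalization. Leaving out 1 library gave 0 to 1, 0 to 9 and 0 to 2 in AM at 2, 6 and 20 h, and 3 to 6, 3 to 5 and 2 to 4 in iMo; the 1, the 9 and the 2 in AM were without library N of 0 h. Same-numbered libraries did not all deviate together (r from -0.14 to 0.51, some under 0.1). A replicate block gave 11 for iMo against AM (6 without it), 23 for IM against AM and 36 for IM against iMo at 0 h. No paired analysis was possible for ip times because an ip time and 0 h share at most 1 number. Of 104 pairs of a single gene and a comparison, 93 kept direction and call with a pseudocount of 0.1 TPM, 94 after rescaling, 100 with quantile normalization and 66 with the title code; 36 of them lost their call when some 1 library was left out (89 of 474 fits). The signs of the 10 genes held under the pseudocount and both scalings, except Cdh5 in iMo at 2 h and Cldn5 and Edn1 in iMo at 20 h.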
